A study of Mus musculus with 17 samples.

Results

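Among 23940 noncoding rows measured in neonatal mouse heart, 39 stood higher at postnatal day 3 (P3) than at day 0 (P0) in both ventricles and stayed near the day 3 level at day 7 (P7). The rows were chosen on group means of log2(FPKM + 0.1), where FPKM is fragments per kilobase of transcript length, scaled to the depth of the library. Both in the left ventricle (LV) and in the right ventricle (RV), the P3 mean had to exceed the P0 mean by at least 1.2, and the P7 mean had to lie within 0.6 of the P3 mean. The mean value over the 17 libraries had to be at least 0.3 FPKM, rows of the mitochondrial chromosome were left out, and NONMMUT020955 was set aside. These limits on level and chromosome left 4148 eligible rows. Because the rule read every difference between ages, the day 3 and day 7 differences are described here without a test, and only differences between the ventricles were tested.

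All libraries came from untreated male C57Bl/6 mice, with LV and RV sampled at P0, before closure of the ductus arteriosus, at P3, a stage of transition, and at P7, by which age terminal differentiation has been reached by nearly all cardiomyocytes. Each of the 6 groups held 3 libraries of biological replicates, except RV at P7 with 2. The labels do not say whether the LV and RV libraries of an age came from the same animals, nor how many animals went into a library. The tissue label was not checked against markers, because the tables carry noncoding rows without gene symbols.

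Long noncoding RNAs are transcripts that are not translated into a protein. Some act on the chromatin or transcription of nearby genes, others bind proteins or other RNAs, and for many no function is known. In the days after birth the ductus arteriosus closes, the lungs take over oxygenation and pressure load shifts toward the left ventricle, while heart muscle cells leave the cell cycle and turn from glucose to fatty acids as fuel. The study followed noncoding transcripts through this window. In bulk ventricle, a larger share of cells that contain a transcript and more of that transcript per cell cannot be told apart.

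The rows carry either an ID of the NONCODE catalogue (NONMMUT) or an ID of the kind written by transcript assemblers (TCONS). Of the 39 rows, 18 were TCONS rows, 46.2%, against 26.7% of the eligible rows. The mean over all libraries ran from 0.32 to 172.18 FPKM with a median of 0.86 FPKM. A level of at least 10 FPKM was reached by 6 rows, 15.4%, against 3.74% of the eligible rows, and 21 rows averaged under 1 FPKM, 53.8% against 63.1%. No position was given for 8 rows, 20.5% against 9.38%. The other 31 lay on 14 chromosomes, with 5 each on chromosomes 15 and 19 and 4 on chromosome 9. Positions are printed as the files give them and are taken to be on the mouse assembly mm9, since they run past the end of the genes of the later assembly GRCm38.

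The P3 minus P0 difference of the 39 rows ran from 1.24 to 3.44 in LV, with a median of 1.64, and from 1.24 to 3.23 in RV, with a median of 1.60. The median of the eligible rows was -0.14 in LV and -0.05 in RV. From P3 to P7 the 39 rows differed by a median of 0.08 in LV and 0.01 in RV, where the eligible rows had medians of -0.25 and -0.28. The rule bounded this difference for the 39 rows, so nothing is read from the contrast.

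**Figure D1:**
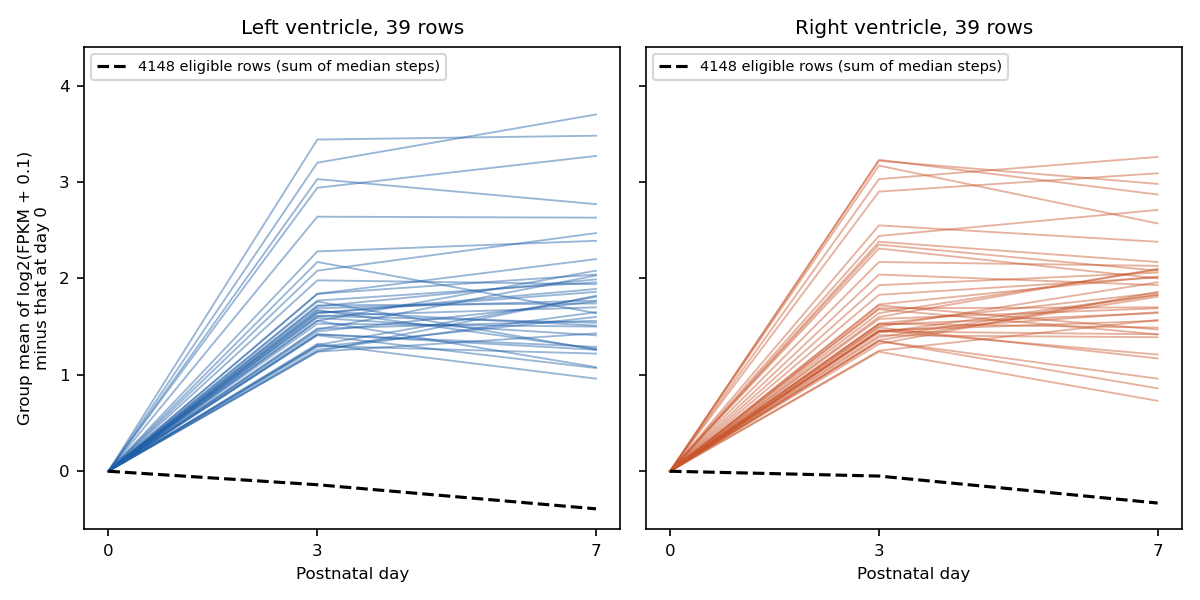
Group means of log2(FPKM + 0.1) of the 39 rows relative to day 0, plotted against postnatal day for the left and the right ventricle, 1 line per row, with the summed median steps of the 4148 eligible rows dashed. Every line lies at 1.24 or more at day 3, which the selection required, and the dashed line lies below 0 at day 3 and day 7.

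The libraries fell into 2 sets by their level of 1 mitochondrial row, and the mix of sets differed between ages in the same way in both ventricles. The row, NONMMUT071594, had 132 to 247 FPKM in 6 libraries, called the high set here, and 7.93 to 25.8 FPKM in 11 libraries, called the low set. The high set held replicate 3 of P0 and replicates 1 and 3 of P3 in both ventricles, and all P7 libraries were in the low set. Within the low set, the median P7 minus P3 difference of the eligible rows was -0.05 in LV and -0.16 in RV, smaller in size than over all libraries. With a pair of the steps seen in low values counted as a fragment, the values implied a depth of 13.8 to 20.5 M fragments per library. The library of lowest depth was RV P3 replicate 2, at 13.8 M fragments, and 49.2% of its rows were listed at 0, the highest share of the 17. Without that library 38 rows met the rule, 35 of them among the 39.

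The most abundant row was TCONS_00024059 at chr16:90341906-90350117, a span of 8212 bases. In LV it had 76.7, 74.5 and 88.4 FPKM at P0, 240, 216 and 212 FPKM at P3, and 241, 223 and 242 FPKM at P7. The RV values were 79.3, 71.3 and 88.1 FPKM at P0, 213, 216 and 222 FPKM at P3, and 217 and 207 FPKM at P7. Every P3 and P7 library stood above every P0 library of its ventricle, and the P3 and P7 values overlapped. The P3 mean was 2.79 times the P0 mean in LV and 2.72 times in RV. The row TCONS_00024058, which lies 0.208 kb away, averaged 0.645 FPKM, and its P3 minus P0 difference of 1.06 in each ventricle fell short of the rule.

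NONMMUT027626, at chr16:90348970-90349887, lies inside TCONS_00024059 and can share reads with it. Its span of 918 bases equals that of the retained-intron transcript of the noncoding gene Gm49708. Its spacing to 5 other matched rows is the same as in GRCm38. The nearest coding genes in GENCODE M21 are Scaf4 and Hunk. Scaf4 encodes a protein that binds the tail of RNA polymerase II, and Hunk encodes a kinase. The start of the transcript is shown because the gene's 2 annotated transcripts differ there: the 222 bases in capitals are also the first exon of the 1236-base spliced transcript of Gm49708, and the 78 bases in lower case are where the retained intron begins. It is read 5′ to 3′ on the transcript strand from the GENCODE M21 transcripts of GRCm38.
Gm49708 retained-intron transcript, first 300 bases: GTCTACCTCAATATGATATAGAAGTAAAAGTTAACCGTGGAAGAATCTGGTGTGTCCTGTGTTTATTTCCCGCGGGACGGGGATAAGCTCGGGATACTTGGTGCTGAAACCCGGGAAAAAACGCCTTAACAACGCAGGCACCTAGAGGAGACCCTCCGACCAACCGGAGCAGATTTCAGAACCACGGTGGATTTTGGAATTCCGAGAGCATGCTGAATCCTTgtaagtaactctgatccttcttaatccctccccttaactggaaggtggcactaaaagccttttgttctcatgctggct

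NONMMUT027626 had 29.1, 27.4 and 20.7 FPKM at P0 in LV, 79.4, 78.1 and 74.0 at P3, and 67.7, 70.8 and 65.8 at P7. In RV it had 24.2, 24.3 and 17.8 FPKM at P0, 75.8, 62.2 and 75.2 at P3, and 65.4 and 77.3 at P7. All P7 libraries of LV lay below those of P3, while in RV the ages overlapped. At P0 the lowest value of this row in each ventricle came from replicate 3, the library of the high set, which was also the library with the highest value of TCONS_00024059.

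NONMMUT062940, the second most abundant row, has no position. In LV it had 54.0, 42.1 and 43.0 FPKM at P0, 140, 181 and 155 at P3, and 196, 150 and 197 at P7. RV libraries gave 49.1, 35.9 and 39.6 FPKM at P0, 187, 265 and 229 at P3, and 316 and 231 at P7. The ventricles overlapped at P0, and at P3 and P7 every RV library was above every LV library. The P3 mean was 3.42 times the P0 mean in LV and 5.46 times in RV.

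TCONS_00020480, at chr15:100102805-100103014, covers 210 bases, the shortest span among the positioned rows. Its LV values were 15.2, 10.3 and 11.2 FPKM at P0, 37.4, 45.8 and 48.2 at P3, and 54.8, 59.5 and 38.7 at P7. Its RV values were 12.8, 10.3 and 14.0 FPKM at P0, 50.2, 51.5 and 40.5 at P3, and 41.6 and 64.3 at P7. The later ages overlapped in both ventricles and stood above P0 in all libraries.

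NONMMUT055556, at chr6:3286772-3289354, has the span of Gm43197, a locus that GENCODE lists as still to be tested by experiment, with the same spacing to 8 other matched rows. The nearest coding gene is Samd9l, an interferon-induced gene that restrains cell growth. The start of this row is printed so that the locus can be found in any build, 5′ to 3′ on the transcript strand from GENCODE M21, with no part marked.
Gm43197 transcript, first 200 bases of 2583: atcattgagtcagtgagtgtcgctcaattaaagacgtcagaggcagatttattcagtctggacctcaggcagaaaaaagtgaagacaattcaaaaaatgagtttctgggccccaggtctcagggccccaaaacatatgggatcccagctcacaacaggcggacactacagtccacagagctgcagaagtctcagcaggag

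NONMMUT055556 had 14.0, 12.6 and 15 FPKM at P0 in LV, 45.1, 38.7 and 39.7 at P3, and 30.6, 28.2 and 29.6 at P7. In RV it had 17.1, 12.7 and 10.9 FPKM at P0, 40.2, 36.9 and 35.8 at P3, and 28.7 and 31.6 at P7. All P7 libraries of both ventricles were below all P3 libraries and above all P0 libraries, so this row came down part of the way within the limit of the rule. NONMMUT061272, at chr7:55382007-55387550, had the same order. Its LV values were 14.0, 8.96 and 13.8 FPKM at P0, 30.0, 36.6 and 30.0 at P3, and 24.7, 25.4 and 26.0 at P7. Its RV values were 18.3, 8.45 and 9.96 FPKM at P0, 30.6, 28.7 and 29.6 at P3, and 20.9 and 24.5 at P7.

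**Figure D2:**
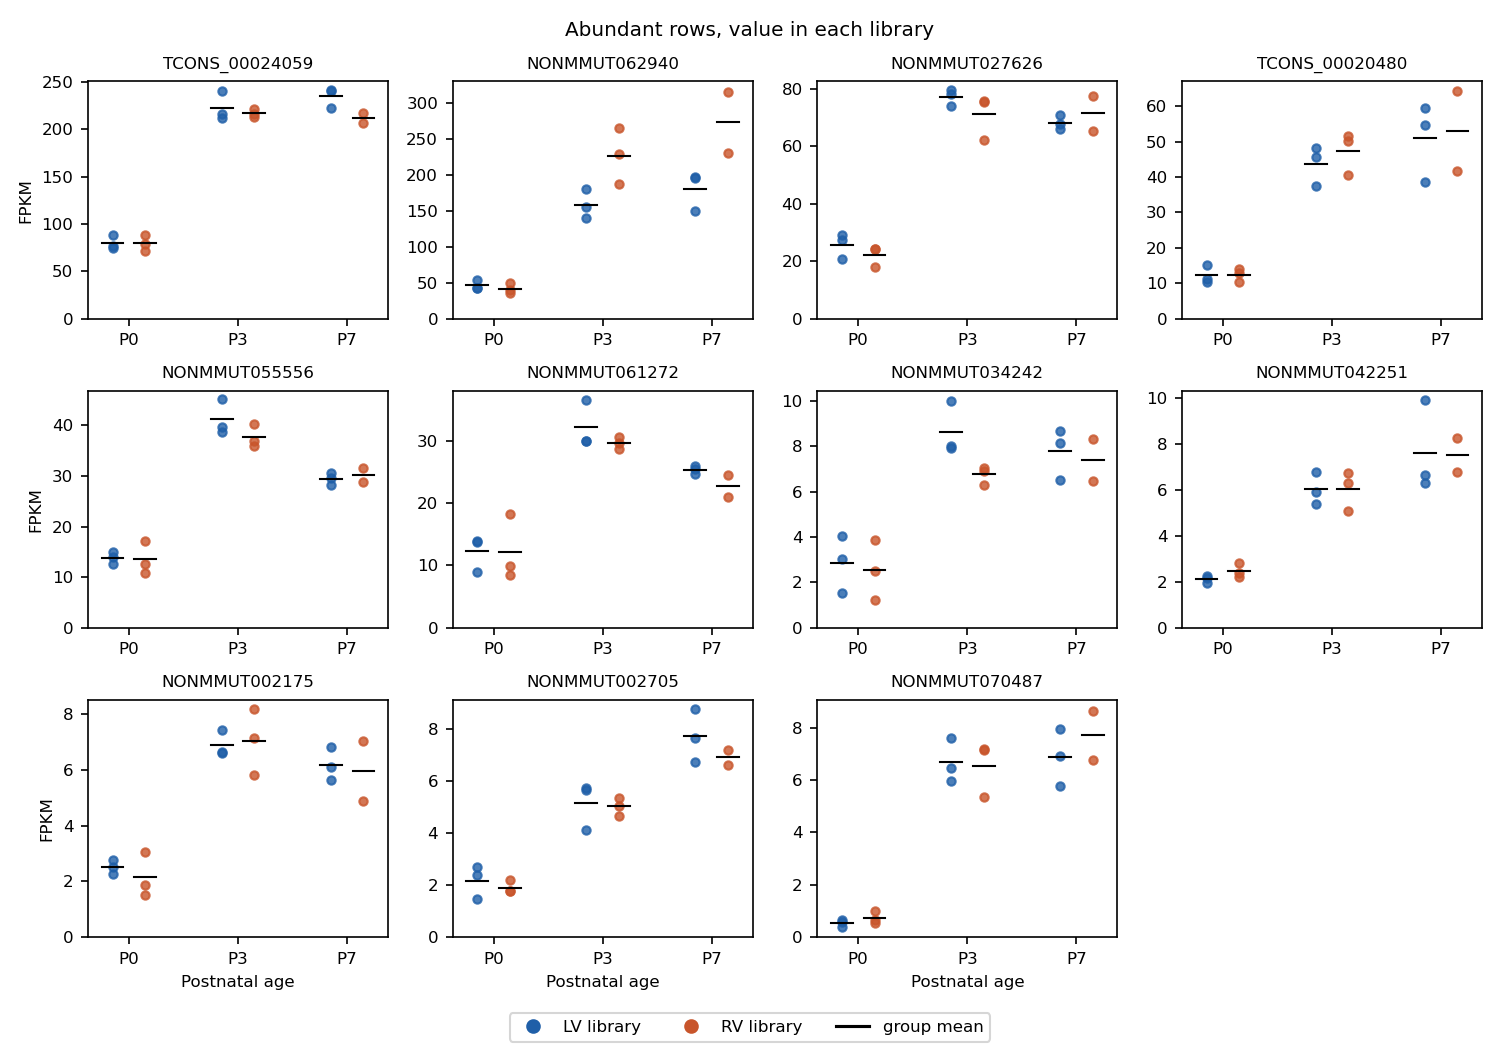
FPKM in each library of the abundant rows described by name, at P0, P3 and P7, with LV libraries in blue, RV libraries in orange and group means as black bars. For TCONS_00024059 all P0 libraries lie between 71.3 and 88.4 FPKM and all later ones between 207 and 242 FPKM.

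NONMMUT002705, at chr1:136879883-136881637, had its highest values at P7. It had 1.47, 2.37 and 2.69 FPKM at P0 in LV, 5.73, 4.11 and 5.66 at P3, and 7.67, 6.74 and 8.76 at P7. In RV it had 1.76, 1.76 and 2.18 FPKM at P0, 5.36, 5.06 and 4.67 at P3, and 7.21 and 6.62 at P7. No library overlapped between any 2 ages in either ventricle. This row lies 17.5 kb from NONMMUT002703, which has the span of a transcript at Ube2t, a ubiquitin-conjugating enzyme of the Fanconi anaemia DNA repair pathway. NONMMUT002703 was lower at P3, with P3 minus P0 differences of -0.99 in LV and -0.93 in RV.

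Further abundant rows were NONMMUT034242, NONMMUT042251 and NONMMUT002175. NONMMUT034242 has no position and averaged 2.86 ± 1.27 FPKM (SD, n = 3) in LV at P0, 8.64 ± 1.19 at P3 (n = 3) and 7.76 ± 1.11 at P7 (n = 3). Its RV means were 2.53 ± 1.32, 6.76 ± 0.393 and 7.38 ± 1.31 FPKM, the last of 2 libraries. NONMMUT042251, at chr3:21897624-21975101, has the longest span of the positioned rows, 77478 bases. It averaged 2.14 ± 0.161 FPKM at P0, 6.04 ± 0.698 at P3 and 7.64 ± 2.0 at P7 in LV, and 2.48 ± 0.325, 6.04 ± 0.848 and 7.53 ± 1.05 FPKM in RV. The highest LV library at P7 was replicate 1, at 9.94 FPKM against 6.67 and 6.31. NONMMUT002175, at chr1:102127685-102128481, averaged 2.52 ± 0.248, 6.90 ± 0.480 and 6.19 ± 0.595 FPKM in LV and 2.15 ± 0.818, 7.05 ± 1.18 and 5.96 ± 1.52 FPKM in RV. In these 3 rows no P3 or P7 library reached down to a P0 library.

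Ranked by the smaller of the 2 ventricles' differences, NONMMUT070487 at chr9:95464523-95468440 came first, and it was also among the 12 most abundant rows. In LV it had 0.380, 0.642 and 0.570 FPKM at P0, 7.59, 5.98 and 6.48 at P3, and 7.97, 5.79 and 6.94 at P7. Libraries of RV held 0.548, 0.979 and 0.649 FPKM at P0, 7.18, 7.14 and 5.34 at P3, and 8.65 and 6.77 at P7. The P3 mean was 12.6 times the P0 mean in LV and 9.04 times in RV, and the lowest later library, at 5.34 FPKM, was well above the highest P0 library, at 0.979 FPKM.

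NONMMUT070488 has the same position as NONMMUT070487 and can share reads with it. Its LV values were 0.0358, 0.0482 and 0.140 FPKM at P0, 1.14, 0.349 and 0.555 at P3, and 0.848, 0.885 and 0.768 at P7. Its RV values were 0.0824, 0.0662 and 0.0405 FPKM at P0, 0.849, 1.36 and 0.331 at P3, and 0.691 and 0.571 at P7. Every later library was above every P0 library in both ventricles, and the P3 and P7 values overlapped. A further row of that position, NONMMUT070489, averaged 0.0371 FPKM. The locus lies 50.6 kb from a row that matches Gm28424 and 147 kb from one that matches Trpc1, a cation channel. The coding genes between those 2 in GRCm38 are Paqr9 and Pcolce2. Paqr9 encodes a membrane receptor of the progestin and adipoQ receptor family, and Pcolce2 an enhancer of procollagen processing.

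TCONS_00030397 at chr19:9683167-9683812 and TCONS_00030398 at chr19:9684828-9699306 lie 1.02 kb apart. TCONS_00030397 had 0.0754, 0.102 and 0 FPKM at P0 in LV, 1.07, 1.47 and 0.951 at P3, and 0.479, 1.12 and 1.49 at P7. In RV it had 0, 0.0929 and 0 FPKM at P0, 1.35, 0.730 and 1.21 at P3, and 1.24 and 0.622 at P7. TCONS_00030398 was listed at 0 in 2 of 3 P0 libraries of LV and in all 3 of RV, and it had 0.317 to 1.12 FPKM at P3 and 0.376 to 0.765 at P7 in LV. The RV values were 0.522 to 1.75 FPKM at P3 and 0.370 and 1.04 at P7. Both rows were between 0 and 0.102 FPKM in every P0 library and between 0.317 and 1.75 FPKM in every later one.

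NONMMUT024468 at chr15:84977629-84978581 and TCONS_00021476 at chr15:84979001-84986582 are 0.42 kb apart, and both were higher in RV than in LV in the means of P3 and P7. NONMMUT024468 had 0.419, 0.609 and 0.352 FPKM at P3 in LV and 0.916, 1.03 and 1.26 in RV. At P0 it had 0 to 0.153 FPKM in LV and 0 to 0.116 in RV, and at P7 0.158 to 0.590 in LV against 0.522 and 0.843 in RV. TCONS_00021476 had 0.643, 0.804 and 0.434 FPKM at P3 in LV against 0.890, 1.44 and 1.07 in RV, and 0.678, 0.526 and 0.663 at P7 against 1.2 and 1.36. For TCONS_00021476 the ventricles did not overlap at P3, at P7 or at P0, where LV had 0.108 to 0.120 FPKM and RV 0.0459 to 0.0998.

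NONMMUT071854, a row without a position, completed the 8 rows with the greatest differences, to which NONMMUT062940, TCONS_00020480 and NONMMUT024468 also belong. Its LV values were 0, 0.0750 and 0 FPKM at P0, 0.913, 0.452 and 1.31 at P3, and 1.19, 1.14 and 0.879 at P7. Its RV values were 0.0641, 0.411 and 0.126 FPKM at P0, 1.73, 1.08 and 1.06 at P3, and 0.695 and 1.5 at P7. In RV the highest P0 library was replicate 2.

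The 19 rows not named by abundance, size of difference, closeness to another of the 39 or a threshold averaged 0.404 to 3.18 FPKM, with a median of 0.564 FPKM. Their P3 minus P0 differences ran from 1.24 to 3.20 in LV and from 1.32 to 2.55 in RV. The median of their group means, taken in each group on its own, was 0.185 FPKM at P0, 0.857 at P3 and 1.11 at P7 in LV. In RV it was 0.217, 0.790 and 0.789 FPKM. These medians come from different rows and are not the course of 1 row. At the implied depths, a level of 1 FPKM over 1 kb stands for about 13.8 to 20.5 fragments, so these values rest on few fragments. TCONS_00062226, at chr9:63725391-63725653, was chosen for mention after its values were seen, as the row listed at 0 in all P0 libraries of both ventricles. It had 0.506, 1.0 and 1.06 FPKM at P3 and 0.428, 1.72 and 2.19 at P7 in LV, and 0.195, 0 and 0.571 FPKM at P3 and 0.526 and 0.102 at P7 in RV.

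The separation between ages was checked library by library. In LV all P3 libraries stood above all P0 libraries for 36 of the 39 rows, against 8.44% of the eligible rows, and in RV for 37 rows, against 11.8%. All P7 libraries stood above all P0 libraries for 37 rows in LV, against 9.81%, and for 36 rows in RV, against 11%. For 34 rows all of these held in both ventricles, against 2.84% of the eligible rows. These shares are set by the selection itself, and nothing is read from them. The 5 rows with an overlap were NONMMUT054404, TCONS_00052064, TCONS_00057129, TCONS_00058954 and TCONS_00062226. In NONMMUT054404 a P0 library of RV, replicate 2, had 0.650 FPKM, while the other 2 had 0 and 0.0853 FPKM.

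Between P3 and P7 most rows overlapped. All P7 libraries were above all P3 libraries for 3 rows in LV, against 5.93% of the eligible rows, and for 6 in RV, against 6.03%. All P7 libraries were below all P3 libraries for 3 rows in LV and 6 in RV, against 19.7% and 28.7% of the eligible rows. The limit on the P7 difference in the rule bears on these counts too.

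The difference between P0 and P3 was then taken within each library set, which leaves P3 replicate 2 against P0 replicates 1 and 2 in the low set and P3 replicates 1 and 3 against P0 replicate 3 in the high set. The low set of RV at P3 is then the 1 library of lowest depth. In LV it ran from 0.71 to 3.46 in the low set, with a median of 1.65, and from 0.37 to 3.58 in the high set, with a median of 1.69. In RV it ran from 0.00 to 4.21 in the low set, with a median of 1.47, and from 0.85 to 3.78 in the high set, with a median of 1.79. In LV it was above 0 in all 39 rows in both sets, where 31.8% of the eligible rows were in the low set and 42.3% in the high set. In RV it was above 0 in 38 rows in the low set, against 41.8% of the eligible rows, and in all 39 in the high set, against 49.6%. The limit of 1.2 was reached in LV by 32 rows in each set, against 3.54% of the eligible rows in the low set and 4.63% in the high set. In RV it was reached by 31 rows in the low set, against 5.67%, and by 35 in the high set, against 5.86%, and 21 rows reached it in all 4. The same libraries chose the rows, so these counts are largely set by the selection and nothing is read from them. The P7 minus P3 difference can be taken within the low set alone, where it ran from -0.99 to 1.07 in LV and from -1.34 to 1.83 in RV, with medians of 0.24 and 0.10. When the whole rule was applied to the 11 libraries of the low set, 26 rows met it, of which 17 were among the 39.

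**Figure D3:**
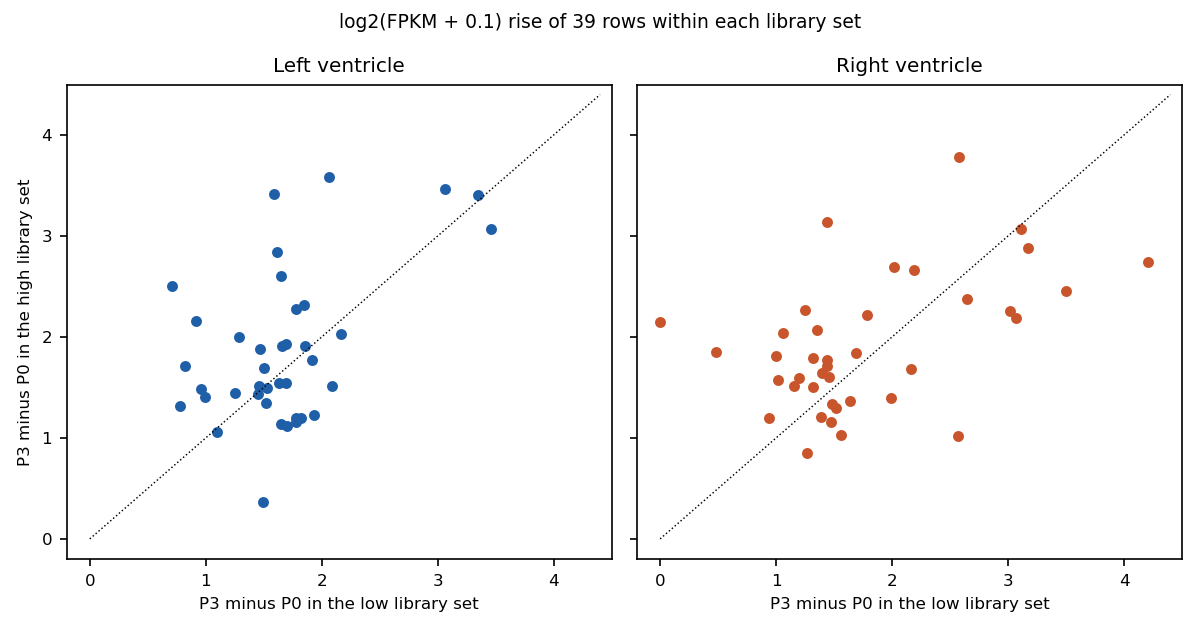
P3 minus P0 difference of log2(FPKM + 0.1) of the 39 rows within the low library set (x axis) and within the high library set (y axis), for the left and the right ventricle, with the dotted line marking equal values. All points lie above 0 in both sets of the left ventricle, and in the right ventricle the low set spans 0.00 to 4.21.

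The 2 ventricles were compared in the size of the day 3 difference. The rule was met in LV by 70 of the 4148 eligible rows, 1.69%, and in RV by 96 rows, 2.31%. The 39 rows that met it in both make up 55.7% of the LV list and 40.6% of the RV list. Of the 75 rows with a P3 minus P0 difference of at least 1.2 in both ventricles, the 39 are 52%. Among the 39, the RV difference minus the LV difference ran from -1.76 to 1.41 with a median of 0.08, and it was within 0.5 in 27 rows. The rule set a floor of 1.2 for the day 3 difference of both ventricles, so nothing is read from this closeness. The ventricles were apart by at least 1 in 4 rows. LV had the greater difference in TCONS_00062226, by 1.76, and in NONMMUT054404, by 1.29. RV had the greater difference in TCONS_00021476, by 1.18, and in NONMMUT024468, by 1.41.

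**Figure D4:**
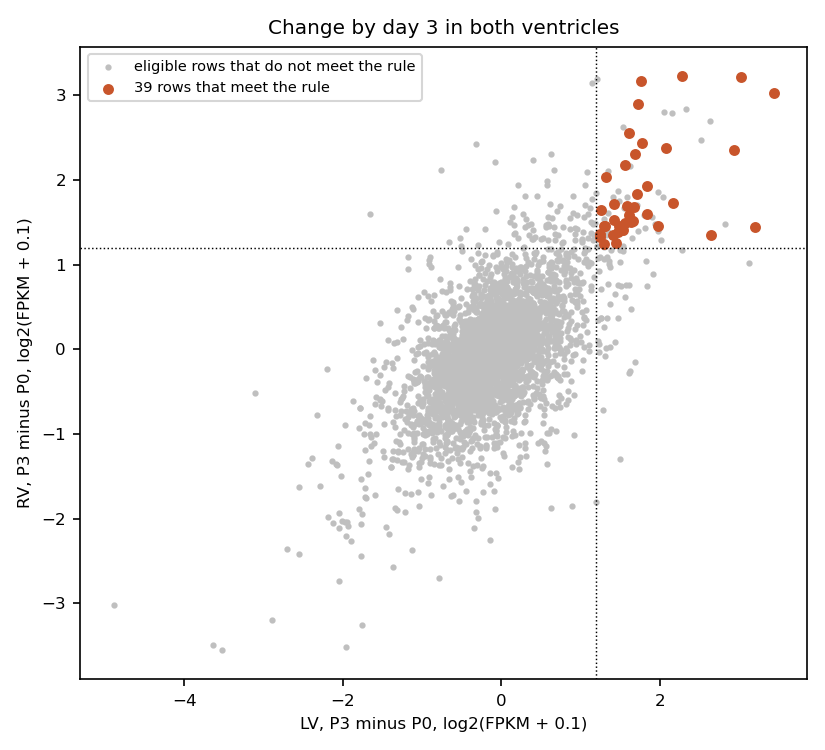
P3 minus P0 difference of log2(FPKM + 0.1) in LV (x axis) against RV (y axis) for the 39 rows in orange and the other eligible rows in grey, with dotted lines at the threshold of 1.2. The 39 rows reach 3.44 in LV and 3.23 in RV, and grey points beyond both lines are rows that did not meet the limit on the P7 difference.

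The level of RV against LV at the same age was not part of the rule and was tested with limma, a linear model fitted across all 11079 rows that passed a filter on low values, with Benjamini-Hochberg adjustment. All 39 rows passed the filter. The fit did not pair LV and RV libraries. In it none of the 39 was called over the 3 ages, against a background of 0.00903% of the tested rows. None was called at P0, with a background of 0%, nor at P3 or at P7, with 0.00903% each. At an unadjusted two-sided p under 0.05 limma gave 5 of the 39 over the ages, 2 at P0, 4 at P3 and 3 at P7, where the shares of all tested rows were 6.9%, 5.3%, 5.88% and 4.47%.

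Over the ages, RV minus LV of the 39 rows ran from -1.21 to 0.58 on the log2 scale, with a median of -0.06 and a median standard error (SE) of 0.19. It lay within 0.5 for 36 rows and above 0 for 16. All tested rows had a median of -0.02. Their share within 0.5 was not computed, so the count of 36 is not read as a trait of these rows. The lowest value was that of TCONS_00062226, -1.21 ± 0.36 (SE), with a limma adjusted p of 0.412. The highest was that of NONMMUT024468, 0.58 ± 0.26, with an adjusted p of 0.698. For NONMMUT062940 the difference was 0.31 ± 0.10 over the ages, with an adjusted p of 0.418, 0.51 ± 0.16 at P3, with 0.626, and 0.59 ± 0.18 at P7, with 1. A fit with a replicate block, given in the closing section, did call NONMMUT062940 over the ages, at P3 and at P7. In the fit without a block, TCONS_00024059 differed by -0.06 ± 0.05 over the ages. A difference that misses the threshold does not show equal levels, and at the median SE of 0.19 a difference of that size was not detectable.

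**Figure D5:**
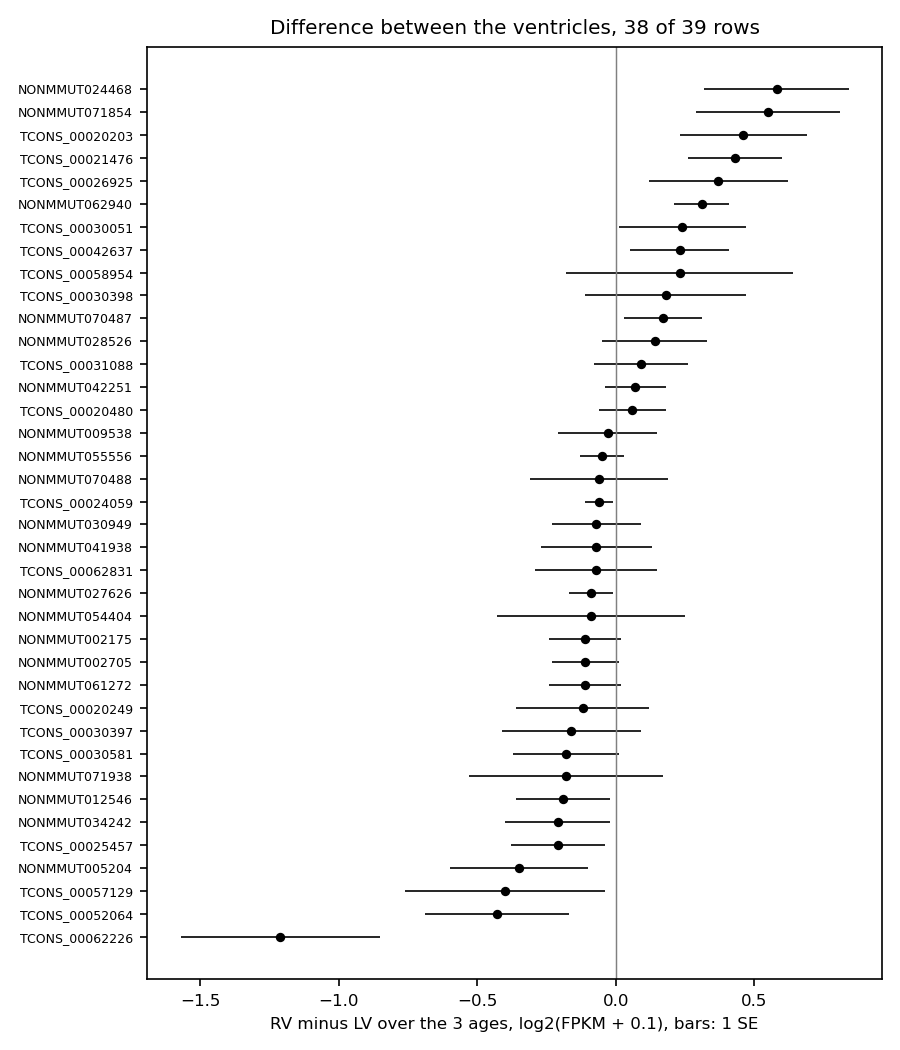
RV minus LV difference of log2(FPKM + 0.1) over the 3 ages for 38 of the 39 rows, with bars of 1 SE from limma. The points run from -1.21 for TCONS_00062226 to 0.58 for NONMMUT024468.

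The neighbourhood of the 31 positioned rows was read from the file positions. Another row lay within 50 kb of 22 of them, and another of the 39 within 50 kb of 8. Around them lay 46 further rows, of which 11 averaged at least 0.3 FPKM. Of these 11, 8 were higher at P3 than at P0 in both ventricles, 72.7%, where 27.8% of the eligible rows were. None of the 11 reached a difference of 1.2 in both ventricles. Of the 8 that were higher, TCONS_00049974 overlaps a row of the 39 and can share reads with it. The others lie 0.208 kb or more away. Any higher mean was counted, however small, and for NONMMUT035189 the difference was 0.01 in LV and 0.16 in RV. Some of the 8 lie beside the same row of the 39 and may not be independent. The share is a description.

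The following neighbours were chosen for mention after their values were seen. TCONS_00030581 on chromosome 19 lies 2.06 kb from a row that matches 2410080I02Rik, whose nearest coding gene is Klf9, a transcription factor induced by glucocorticoid and thyroid hormone. Its LV values were 0.328, 0.624 and 0.452 FPKM at P0, 1.27, 1.0 and 1.46 at P3, and 1.87, 0.979 and 2.4 at P7. Its RV values were 0.222, 0.381 and 0.328 FPKM at P0, 0.855, 1.47 and 1.24 at P3, and 1.89 and 1.40 at P7. The neighbouring row NONMMUT034211, 28.1 kb away, averaged 11.6 FPKM and had P3 minus P0 differences of 0.92 in LV and 1.19 in RV, below the limit of 1.2 in both. The nearer row TCONS_00030582, 0.266 kb away, averaged 1.22 FPKM and had differences of 0.82 in LV and 1.11 in RV. NONMMUT005204 at chr10:32972524-32975337 lies 52.3 kb from a row that matches Trdn, which encodes triadin, a protein of the calcium release complex of heart muscle. It averaged 0.192 ± 0.162 FPKM at P0, 0.693 ± 0.278 at P3 and 0.653 ± 0.107 at P7 in LV (SD, n = 3), and 0.137 ± 0.113, 0.498 ± 0.168 and 0.478 ± 0.113 FPKM in RV, the last of 2 libraries. Within the low library set its P3 minus P0 difference was 0.71 in LV and 1.02 in RV, below the limit of 1.2. Within the high set it was 2.50 in LV and 1.57 in RV.

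Rows close to the thresholds show where the list ends. For the P3 minus P0 difference in LV, NONMMUT002705 was just inside at 1.24 and TCONS_00014328 just outside at 1.19, and in RV TCONS_00052064 was inside at 1.24 and TCONS_00056602 outside at 1.08. For the P7 minus P3 difference in LV, NONMMUT002705 was inside at 0.58 and TCONS_00015867 outside at -0.61, and in RV NONMMUT024468 was inside at -0.60, before rounding within the limit, and NONMMUT071852 outside at 0.68. For the mean over the libraries, TCONS_00058954 was inside at 0.317 FPKM and NONMMUT029071 outside at 0.285 FPKM. The rows that failed on the LV difference at day 3 alone numbered 34, and those that failed on the RV difference alone numbered 15.

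The list was recomputed without each library in turn. Between 32 and 47 rows met the rule, and 12 of the 39 met it in all 17 recomputations. These 12 were NONMMUT002175, NONMMUT027626, NONMMUT030949, NONMMUT055556, NONMMUT062940, NONMMUT070487, TCONS_00020480, TCONS_00021476, TCONS_00024059, TCONS_00031088, TCONS_00042637 and TCONS_00062831. A further 25 met it in 12 to 16 recomputations. The other 2, TCONS_00052064 and TCONS_00058954, met it in 10 and 11, and both lie next to a threshold.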

How the data were processed

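Noncoding transcripts were measured by strand-specific paired-end sequencing of total RNA in 17 mouse ventricle libraries. Per the submitters' processing notes, STAR 2.4.0j and the build mm10 were used. For the annotation, counting and normalization, what was used is not given in the sources used here. Each deposited table is in a unit that the authors do not name. The deposited values were read as FPKM, because many low values fall on even steps for the row's span. In each library 58.4% to 61.9% of the low values lay near such a step. The step was sought only within a set range, which bounds the depths that could be found. A pair of these steps was counted as a fragment, which was not tested. The unit remains an inference, and the depths come from it and from that way of counting.

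The 39 rows, the tests and the naming rule were chosen with earlier results of these data known. Named are the 12 most abundant rows, the 8 with the largest smaller-ventricle difference, rows within 50 kb of another of the 39, rows called between ventricles and rows at each threshold. Others are named as seen after the values. Of the 12, 1 is counted with the 39 but not reported by name here.

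The difference RV minus LV came from limma 3.58.1, run in R 4.3.3, with log2(FPKM + 0.1) as the response, a variance trend and robust moderation, for rows at 0.1 or more in at least 2 libraries. This scale understates changes of low rows. The fit was tested on simulated data. Adjusted p under 0.05 was called. Library sets were split at 100 FPKM of NONMMUT071594.

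No mm9 genome or annotation was used and no position was converted. A row was matched to a gene of GENCODE M21 or RefSeq on GRCm38 by chromosome, equal span and spacing. The spacing had to hold, within 2 bases, to at least 3 other matched rows within 2000000 bases. This matched 4414 of 23238 positioned rows. Alternatives were the pseudocount, scaling to equal medians, filter, variance trend, thresholds, single libraries left out and a replicate block.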

Additional observations from a re-analysis of the deposited data

How the results depend on the processing

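With other settings of the rule, the number of rows that met it was 39 with the pseudocount of 0.1, 52 with 0.01 (36 of the 39 among them) and 9 with 1. It was 59 with a minimum difference of 1.0, 21 with 1.5, 25 with a P7 limit of 0.4 and 18 with a minimum mean of 1 FPKM. Scaling the libraries to equal medians gave 36 rows, 29 of them among the 39. Leaving out 1 library at a time gave 32 to 47. The P3 minus P0 differences of the 39 rows were above 0 without any 1 library (0.72 to 3.57) and after scaling (1.27 to 3.53). They were 0.30 to 2.42 with a pseudocount of 1, where 56 of the 78 values, 1 per row and ventricle, moved by more than the spread between replicates, and 1.27 to 6.39 with 0.01, where 32 did. None changed sign in these settings.

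For RV minus LV over all tested rows, the calls over the ages were 0 without the variance trend and 0 to 3 without 1 library. At P0 they were 1 without the filter and 0 to 2 without 1 library. At P3 they were 2 with a pseudocount of 0.01, 2 after scaling, 0 without the filter, 0 without the trend and 0 to 3 without 1 library. At P7 they were 2 with a pseudocount of 1, 15 without the filter and 0 to 1 without 1 library.

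LV and RV libraries of equal number deviated together with r of 0.05 to 0.17. This was not above 0.1 in every pair, so the numbers were not taken to pair them. Even so, each library with a counterpart of its own number correlated best with that counterpart. LV P7 replicate 3 has none. With a replicate block the calls were 5 over the ages, 0 at P0, 11 at P3 and 2 at P7. NONMMUT062940 was the 1 row of the 39 among them in each of these but P0, at 0.34 ± 0.04 (SE) over the ages, with a limma adjusted p of 0.00862, 0.51 ± 0.06 at P3, with 0.0144, and 0.66 ± 0.08 at P7, with 0.0178. The cause of these differences between settings was not tested.

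Depth limits the 21 rows under 1 FPKM. Within the high library set no P7 library exists, so the level at P7 and the set cannot be told apart there.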
